A study of Mus musculus with 2 samples.

Results

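CpG-rich distal regions are stretches of open chromatin that lie away from annotated gene starts but have the base composition of a CpG island, and they are often called orphan CpG islands. Here they were the regions called as a peak in both libraries that lay more than 2 kb from any GENCODE transcription start site, with a GC content of 55% or more and an observed/expected CpG ratio of 0.6 or more. The ratio sets the number of CpG dinucleotides in a region against the number its C and G content alone would give. By this rule 627 of 214119 shared regions were members, 0.379% of the 165639 shared regions that were distal. Beyond a called peak in each library, no accessibility value was used to choose them.

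CpG islands are regions in which CpG dinucleotides have been kept, and they are usually free of DNA methylation. Most lie at promoters, and those within or between genes can serve as unannotated promoters or as regulatory elements, often beside genes of embryonic development. MOF, encoded by Kat8, is the acetyltransferase that deposits H4K16ac, a histone mark of open chromatin.

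The assay was single-cell ATAC-seq, in which a transposase cuts open DNA, on mouse embryonic back skin taken at E16.5. It gave 1 library from Control embryos and 1 from MOFfl/fl/K14Cre embryos (MOF cKO), in which Cre driven by the Krt14 promoter deletes the floxed MOF gene in epithelial cells. In both, epithelial cells positive for the nuclear reporter K14-H2BGFP and negative cells were sorted, then mixed, at 5 parts to 1 part by the labels and at other ratios by the study's text. What else the Control embryos carried and whether embryos were pooled was not given for these libraries. With 1 library per genotype there was no replicate, so no difference between genotypes was tested, and the 95% intervals given cover counting error only.

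The sequences below show what the rule selects. They come from 5 members: 1 with a high level in epithelial-like cells, and, of the members named below for the largest decreases and increases, the first 2 of each that overlap no untranslated sequence. Each is the 300-base window with most CpG in its region, on the forward strand of mm10 (GRCm38), read from the RefSeq genome GRCm38.p6, with every CpG in capitals. The first lay between genes and had 30 CpG in the window.
chr15:85634450-85634749: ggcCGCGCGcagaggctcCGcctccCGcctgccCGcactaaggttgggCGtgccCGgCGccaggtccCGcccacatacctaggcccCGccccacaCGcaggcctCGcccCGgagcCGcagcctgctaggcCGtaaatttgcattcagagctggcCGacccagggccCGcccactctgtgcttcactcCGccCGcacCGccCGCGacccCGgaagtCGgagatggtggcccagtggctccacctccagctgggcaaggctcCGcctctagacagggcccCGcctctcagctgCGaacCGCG
The next pair, from an intergenic region and from a coding exon of Has1 (hyaluronan synthase), had the largest decreases among autosomal members with at least 500 sites and held 29 and 31 CpG.
chr9:46443604-46443903: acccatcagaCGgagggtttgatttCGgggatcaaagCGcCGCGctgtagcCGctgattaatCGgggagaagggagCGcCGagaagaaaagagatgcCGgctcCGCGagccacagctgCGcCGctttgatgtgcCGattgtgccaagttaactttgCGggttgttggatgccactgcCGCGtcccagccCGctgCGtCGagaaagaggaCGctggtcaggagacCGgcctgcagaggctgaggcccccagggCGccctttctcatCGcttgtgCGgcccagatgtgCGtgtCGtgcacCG
chr17:17849996-17850295: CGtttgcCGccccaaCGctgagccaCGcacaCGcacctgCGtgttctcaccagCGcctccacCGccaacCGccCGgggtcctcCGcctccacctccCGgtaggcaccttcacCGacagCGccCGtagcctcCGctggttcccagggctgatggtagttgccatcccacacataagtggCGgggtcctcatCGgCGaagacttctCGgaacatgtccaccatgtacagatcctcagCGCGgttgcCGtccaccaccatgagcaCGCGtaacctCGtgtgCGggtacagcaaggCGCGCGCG
The last pair, from a coding exon of Zfp30 (a zinc finger gene) and from an intergenic region, came from members higher in MOF cKO and held 23 and 35 CpG.
chr7:29792830-29793129: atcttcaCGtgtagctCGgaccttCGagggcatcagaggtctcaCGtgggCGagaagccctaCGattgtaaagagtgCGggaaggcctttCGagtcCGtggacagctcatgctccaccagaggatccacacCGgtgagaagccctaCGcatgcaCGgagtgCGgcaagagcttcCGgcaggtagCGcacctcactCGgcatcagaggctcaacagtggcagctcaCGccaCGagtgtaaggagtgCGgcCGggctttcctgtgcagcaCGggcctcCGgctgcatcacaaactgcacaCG
chr8:87038029-87038328: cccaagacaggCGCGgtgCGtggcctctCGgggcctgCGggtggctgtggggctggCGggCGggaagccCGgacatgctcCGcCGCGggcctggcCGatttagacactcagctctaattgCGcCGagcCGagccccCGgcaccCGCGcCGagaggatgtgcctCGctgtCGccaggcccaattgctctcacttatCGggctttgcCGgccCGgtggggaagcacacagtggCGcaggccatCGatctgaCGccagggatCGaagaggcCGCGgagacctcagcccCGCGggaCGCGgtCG

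Peaks of the Control library had 169641002 cut sites from 2541 barcodes, and those of MOF cKO had 324310197 from 4348. Of 20 clusters built without the member regions, all could be named from marker genes, and 1754 Control and 2707 MOF cKO cells were epithelial-like while 601 and 1194 were fibroblast-like. In epithelial-like clusters 8 or 9 of 10 epithelial markers were at least 2-fold above other classes, and in fibroblast-like clusters 5 to 9 of 10 fibroblast markers were. Different clusters held most epithelial-like cells of each genotype, clusters 2, 7 and 12 those of Control and clusters 0, 1 and 3 those of MOF cKO, so that cluster and genotype cannot be told apart, and 21 barcodes were shared by the libraries. Accessibility at the Kat8 promoter, which need not lie in the deleted part and so checks no label, was 48.7 CPM in Control and 36.8 CPM in MOF cKO epithelial-like cells.

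Members were rich in CpG, and closer to genes than other distal regions. Their width had a median of 903 bp (432 to 1822), near the 931 bp of other distal regions, and their GC content one of 61.7% (55 to 77.1), against 44.9% in the 165012 other distal regions. A member held a median of 60 CpG (26 to 182), where other distal regions held 9, and the median observed/expected ratio was 0.714 against 0.199. The rule fixes these differences in composition. The 9637 CpG-rich promoter regions, shared regions within 500 bp of a protein-coding start that met the same composition rule, had medians of 63.4% GC, 0.798 and 71 CpG.

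Coding exons were common among members. They held 230 of them, 36.7%, against 5.71% of all distal regions, while introns held 94, 15% against 44.4%. The remaining members were 274 intergenic regions, 43.7% against 46.5%, 15 in noncoding exons and 14 in exons with untranslated sequence. The median distance to the nearest start was 6859 bp (2007 to 196024), and 227 members, 36.2%, lay over 10 kb away, against 63% of distal regions. A transcript start in the RefSeq annotation, which the rule did not use, lay within 500 bp of 97 members, 15.5% against 2.37% of all distal regions. The members are therefore not all far from every known start, and 478 lay more than 2 kb from any RefSeq start.

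In epithelial-like cells CpG-rich distal regions took a smaller share of all accessible sites in MOF cKO than in Control. Of all sites in shared regions, 0.780% lay in members in Control (0.777 to 0.782) and 0.604% in MOF cKO (0.603 to 0.606), which is 77.5% of the Control share. In fibroblast-like cells, which do not use the Krt14 promoter, the share was 0.922% in Control and 0.884% in MOF cKO, 95.9% of Control. CpG-rich promoter regions went the same way in epithelial-like cells, from 27.2% to 20.2%, and other distal regions the opposite way, from 47.5% to 56.6%.

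**Figure D1:**
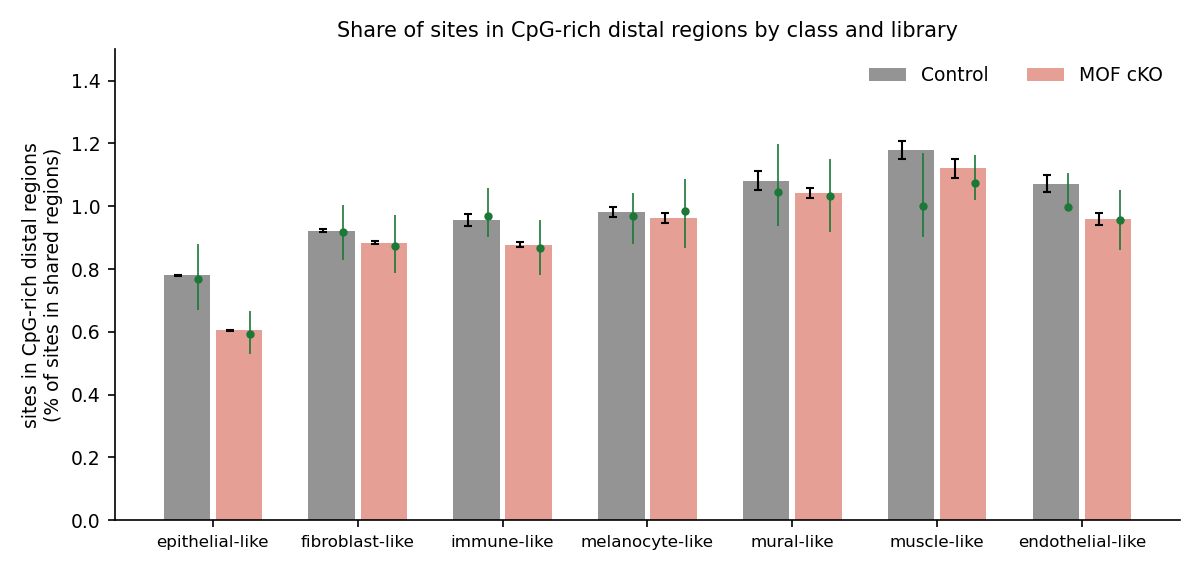
Bars give the percent of all sites in shared regions found in CpG-rich distal regions, for each cell class in Control and MOF cKO, with 95% counting intervals in black; green points and lines give the median and quartiles over cells. Epithelial-like cells had the lowest shares of the 7 classes in both libraries and the largest gap between them, 0.780% and 0.604%.

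With sites pooled over cells, the 5 smaller classes also had lower shares in MOF cKO. The immune-like share was 0.956% in Control and 0.878% in MOF cKO, and the endothelial-like share, from 9 and 27 cells, was 1.07% and 0.960%. The melanocyte-like values were 0.981% and 0.962%, the mural-like ones 1.08% and 1.04%, and the muscle-like ones 1.18% and 1.12%. Counting intervals of both libraries overlapped in the melanocyte-like, mural-like and muscle-like classes. The median single cell went the other way in melanocyte-like cells, with 0.970% in Control and 0.986% in MOF cKO. It did so too in muscle-like cells, with 0.9995% and 1.07%, and was lower in MOF cKO in the other smaller classes. Over single epithelial-like cells the median share was 0.769% (quartiles 0.670 to 0.879) in Control and 0.592% (0.528 to 0.666) in MOF cKO. The quartile ranges nearly met but did not overlap, and cells of 1 library are not replicates of a genotype. The median epithelial-like cell had a site in 23.4% of members in Control and in 24.1% in MOF cKO, at a median of 62615 and 83263 sites per cell.

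The shares also differed between clusters of one library. In the Control clusters 2, 7 and 12 they were 0.734%, 0.828% and 0.805%, and in the MOF cKO clusters 0, 1 and 3 they were 0.592%, 0.606% and 0.603%. All 3 Control values were above all 3 MOF cKO values. A few MOF cKO cells lay elsewhere: the 87 in cluster 13, at a median of 27601 sites a cell, had 0.872%, and the 21 that fell in the Control-held cluster 7 had 0.803% (0.781 to 0.825). In the shallow cluster 4, which held cells of both libraries, the shares were 0.863% in Control and 0.656% in MOF cKO.

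Most members had a lower level in MOF cKO epithelial-like cells. Levels are given as CPM, cut sites scaled to a common total over the shared regions for each class and library, and change as log2(MOF cKO / Control) of CPM. All 627 members had at least 20 sites over both libraries, with a median of 811 epithelial-like sites in Control and 1245 in MOF cKO. The median change was -0.33 (quartiles -0.57 to -0.04), and 487 members, 77.7%, were lower in MOF cKO, against 57.3% of all shared regions, 54.2% of other distal and 92.1% of CpG-rich promoter regions. Per kb of region the median level was 8.08 CPM in Control and 6.85 CPM in MOF cKO. The interval lay below 0 for 391 members (62.4%), where 37.9% of all shared regions had one below 0, and above 0 for 67 (10.7%), where 29.7% did. It included 0 for 169.

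Few members changed by 2-fold. Only 17 members, 2.71%, were lower by 2-fold or more, where 12.2% of all shared regions and 13.4% of other distal regions were. For the opposite direction the count was 9, or 1.44%, where 16.8% of all shared regions and 18.7% of other distal regions were. Both shares were under the background, in a set with higher levels than most regions, and CpG-rich promoter regions had 0.809% and 0.176%. The split between directions moved with the scaling: it was 35 lower and 6 higher when each library's own peaks gave the total, 8 and 13 under size factors from the median of ratios, and 6 and 14 with sites per cell. Of all shared regions, 16.1% were lower and 14.7% higher by 2-fold or more under the first of these. Under the second the shares were 8.85% and 19.2%, and under the third 7.9% and 20.1%. Relative to the values given here, these scalings shift every epithelial-like change by -0.15, 0.15 and 0.21, so that small changes can alter their sign. The median change was -0.09 in other distal regions with quartiles of -0.63 and 0.67, wider than the members' quartiles. In CpG-rich promoter regions it was -0.43 with narrower quartiles (-0.54 to -0.29), in other promoter regions -0.33, and over all shared regions -0.15. The median of members therefore lay 0.24 below that of other distal regions (difference -0.24) and 0.10 above that of CpG-rich promoter regions, whose levels were higher.

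**Figure D2:**
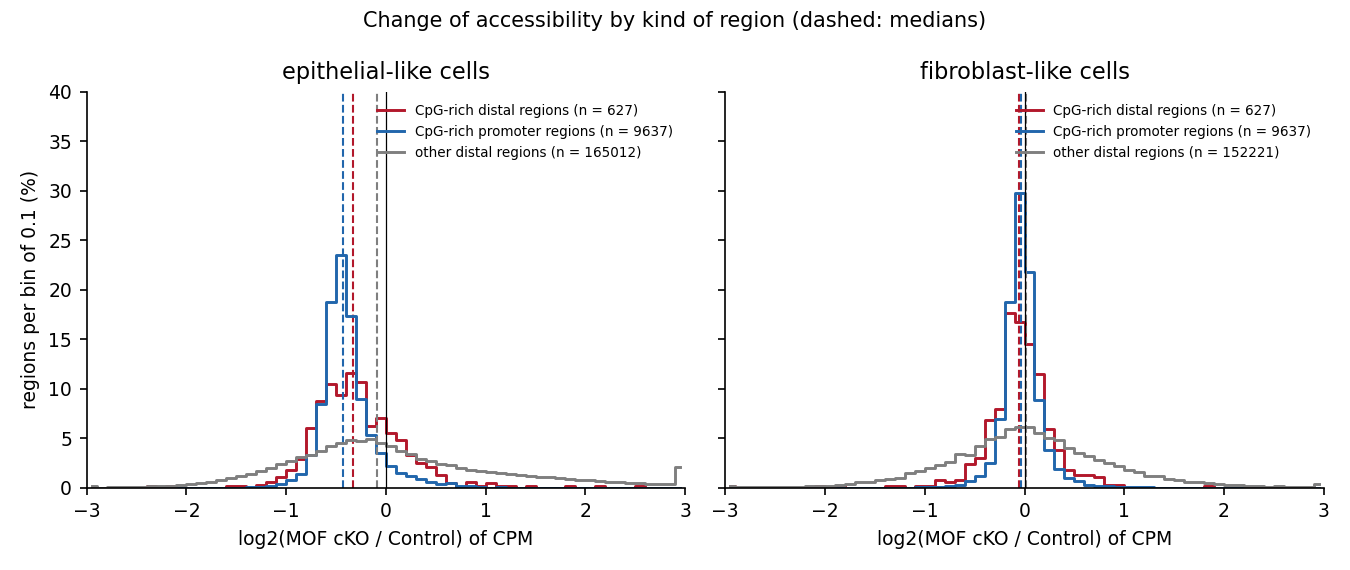
The change, log2(MOF cKO / Control) of CPM, is on the x axis and the percent of regions per bin of 0.1 on the y axis, for CpG-rich distal regions (red), CpG-rich promoter regions (blue) and other distal regions (grey), with dashed medians. In epithelial-like cells the red median lies between the other two, with medians of -0.33, -0.43 and -0.09; in fibroblast-like cells the 3 medians lie close to 0.

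In fibroblast-like cells the same regions had nearly the same level in both libraries. Their median change was -0.05 (quartiles -0.19 to 0.12), with 364 members, 58.1%, lower in MOF cKO against 49.9% of all shared and 60.9% of CpG-rich promoter regions, and the median level was 10.1 CPM per kb in Control and 9.61 in MOF cKO. Past 2-fold were 6 members that were lower, where 7.89% of all shared and 8.83% of other distal regions were, and 1 that was higher, where 10.0% and 11.3% were. Of the 6 lower ones, 4 lay on autosomes and 2 on the Y chromosome. Intervals included 0 for 461 members, with 110 below (17.5%, background 14.2%) and 56 above (8.93%, background 15.4%). The class difference rests on the scaling, which turns its direction: with sites counted per cell instead, the epithelial-like median was -0.13 and the fibroblast-like one -0.43. The members' median lay 0.18 below the median of all shared regions in epithelial-like cells (-0.18) and 0.05 below it in fibroblast-like cells (-0.05), differences that no scaling can alter. With each cell thinned to 5000 sites they were -0.38 and -0.04, over the 602 and 552 members that still had enough sites. In epithelial-like cells the members' median was then -0.35, near the -0.33 without thinning. The median of all shared regions went from -0.15 to 0.025. The larger difference after thinning thus came mainly from the reference median, and the site minimum was applied again, so the regions compared were not the same.

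The clusters that hold the fibroblast-like cells of each library differed too, clusters 6 and 11 being almost all MOF cKO. In clusters 5, 8 and 9, with at least 50 cells of each library, the median change was 0.02 and the share differed by only -0.0005 percentage points. Cluster shares there were 0.913% in Control and 0.946% in MOF cKO (cluster 5), 0.921% and 0.948% (cluster 8), and 0.960% and 0.896% (cluster 9), while clusters 6 and 11 had 0.870% and 0.811%. Across the 627 members the changes in both classes had a Pearson r of 0.385, which is a description, since the same 2 libraries give both values, and other distal regions had 0.35. The interval lay below 0 in both classes for 92 members (14.7%), where 8.86% of all shared regions had this, and above 0 in both for 19 (3.03%), where 7.97% did. It lay below 0 in the epithelial-like class and above 0 in the other for 23 (3.67%, background 3.12%), and the reverse held for 6 (0.957%, background 1.66%).

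At high levels nearly all members were lower, as were most shared regions. Among the 57 with 30 CPM per kb or more in epithelial-like cells, averaged over both libraries, 56 were lower in MOF cKO (98.2%), with a median change of -0.53, against 95.7% of all shared regions and 99.4% of CpG-rich promoter regions at that level. The median was -0.33 in the 185 members at 10 to 30 CPM per kb, -0.28 in the 264 at 3 to 10 and -0.27 in the 121 under 3. Other distal regions at the same levels had medians of -0.30, 0.12, 0.18 and -0.19, so the members' median was lower than theirs at every level. CpG-rich promoter regions had -0.47, -0.42, -0.25 and -0.13, above the members' medians except at 10 to 30 CPM per kb. The gap was widest at 3 to 10 CPM per kb, where 31.9% of other distal regions were higher by 2-fold or more and 1.52% of members were.

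Position relative to genes went along with the size of the change. The median was -0.44 in intergenic members, -0.28 in introns and -0.21 in coding exons, and 85.0% of intergenic members were lower against 67.0% of those in coding exons. With sites per cell the medians were -0.24 in intergenic members and 0.00 in coding exons. Coding exon members also had lower levels, 6.13 CPM per kb in Control against 10.7 in intergenic members, but the gap held within levels: at 10 to 30 CPM per kb the medians were -0.26 and -0.44. Members in noncoding exons, 15 in all, were all lower, with a median of -0.48. Distance from a start went along with smaller differences, with medians of -0.31 at 2 to 5 kb, -0.32 at 5 to 20 kb and -0.40 over 20 kb from a start. Members within 500 bp of a RefSeq start had a median of -0.37 and those over 2 kb from one -0.33.

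Regions just inside and just outside the cutoffs of the rule were all lower in their median. Members with 55 to 56% GC had a median of -0.36, and regions that met the other criteria with 54 to 55% had -0.32. For observed/expected ratios of 0.60 to 0.62 and 0.58 to 0.60 the medians were -0.32 and -0.45, and for distances of 2 to 2.5 kb and 1.5 to 2 kb they were -0.31 and -0.38. Over all distal regions the change followed composition in a broader way. At ratios of 0.6 to 0.8 the median lay between -0.39 and -0.35 at every GC content, also under 40% GC, where it was -0.39 in 35 regions. At ratios under 0.2 it ran from 0.06 under 40% GC to -0.33 at 60% GC or more.

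**Figure D3:**
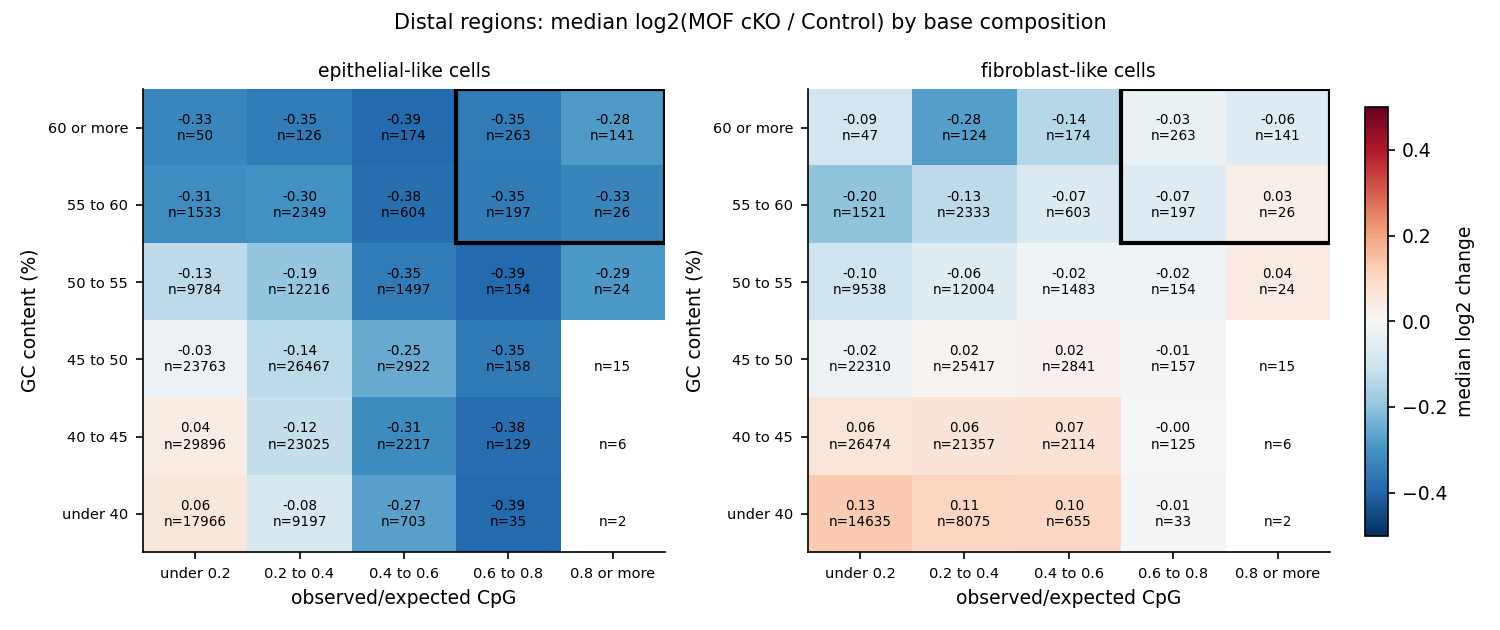
Each cell gives the median change, log2(MOF cKO / Control), and the number of distal regions at a given observed/expected CpG ratio (x axis) and GC content in % (y axis); color runs from blue (lower in MOF cKO) to red, cells of few regions are blank, and the black frame marks the member regions. In epithelial-like cells medians within the frame run from -0.35 to -0.28 and are matched by regions of high ratio and low GC; in fibroblast-like cells they run from -0.07 to 0.03.

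Among autosomal members with at least 500 epithelial-like sites, which 555 had, the largest decrease was in an intergenic region at chr9:46443348-46443939, 123362 bp from the nearest protein-coding start, that of 4931429L15Rik. Its level was 10.7 CPM per kb in Control and 4.04 in MOF cKO, and its log2 change was -1.40 (-1.64 to -1.16), and in fibroblast-like cells the change was -0.53. The next was at chr17:17849727-17850766, a coding exon of Has1, which makes hyaluronan, with 2.5 CPM per kb in Control and 1.08 in MOF cKO and a change of -1.21 (-1.57 to -0.85). In fibroblast-like cells the change of this exon was 0.01, and RefSeq places a transcript start of Gm36907 within it.

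A region 3528 bp from Cdkn1c, an imprinted inhibitor of the cell cycle, had 15.1 CPM per kb in Control and 6.57 in MOF cKO (change -1.20, interval -1.35 to -1.05). It lies at chr7:143464578-143465531, and its change in fibroblast-like cells was -0.24. The coding exon of Sox9 at chr11:112784729-112785609, a gene for a transcription factor of hair follicle stem cells, had 5.14 CPM per kb in Control and 2.26 in MOF cKO, and its log2 change was -1.19 (-1.45 to -0.92). The fifth, at chr8:126583984-126584956 in an intron of Gm26759 and 9030 bp from Irf2bp2, a transcriptional corepressor gene, had 16.7 CPM per kb in Control and 7.53 in MOF cKO (change -1.15, interval -1.29 to -1.01). All 5 had a smaller change in fibroblast-like cells, between -0.53 and 0.01. They were picked for their epithelial-like decreases, which by itself favours a smaller change in the other class, so this shows no difference between classes.

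Among the same autosomal members with at least 500 sites, 4 of the 5 with the largest increases in MOF cKO lay in coding exons. At chr7:29792648-29793695, an exon of Zfp30, the level was 0.781 CPM per kb in Control and 4.45 in MOF cKO, from 95 and 964 sites, and the change was 2.51 (2.07 to 2.96). At chr5:147314853-147315833, an exon of Urad, which encodes an enzyme of urate breakdown, it was 2.98 CPM per kb in Control and 13.4 in MOF cKO (change 2.17, interval 1.93 to 2.40). These were the only members of this group whose fibroblast-like interval also lay above 0, with changes of 1.89 and 0.73, the first from 9 and 51 sites.

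An exon of AI464131 at chr4:41497326-41498145 had 4.21 CPM per kb in Control and 11.6 in MOF cKO (change 1.46, interval 1.24 to 1.69). An exon of Alk, a receptor tyrosine kinase gene, at chr17:71868710-71870048 had 3.0 CPM per kb in Control and 7.01 in MOF cKO (change 1.22, interval 1.01 to 1.43). The intergenic region at chr8:87037611-87038631 had 2.28 CPM per kb in Control and 4.70 in MOF cKO (change 1.04, interval 0.77 to 1.33). The 4 exon regions each held an AP-1 sequence and the intergenic one did not. AP-1 proteins (Fos and Jun families) are transcription factors of stress and proliferation that act mainly at enhancers.

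The AP-1 sequence searched was TGACTCA or TGAGTCA on either strand, and 53 of the 627 members held it. Among these 53 the median change was -0.09, with 22 higher in MOF cKO (41.5%), against -0.35 and 118 of 574 (20.6%) in members without it, a gap of 0.26. With sites per cell or median of ratios the median with the sequence was above 0, at 0.11 and 0.06. By 2-fold or more, 6 members with the sequence were higher (11.3%) and 1 was lower (1.89%), against 3 (0.523%) and 16 (2.79%) without it. Of all shared regions 16.8% were higher and 12.2% lower by 2-fold or more, so these shares were all under the background. Other distal regions with and without the sequence had medians of 0.71 and -0.28, a gap of 0.99. In fibroblast-like cells the members' medians were 0.03 and -0.06.

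**Figure D4:**
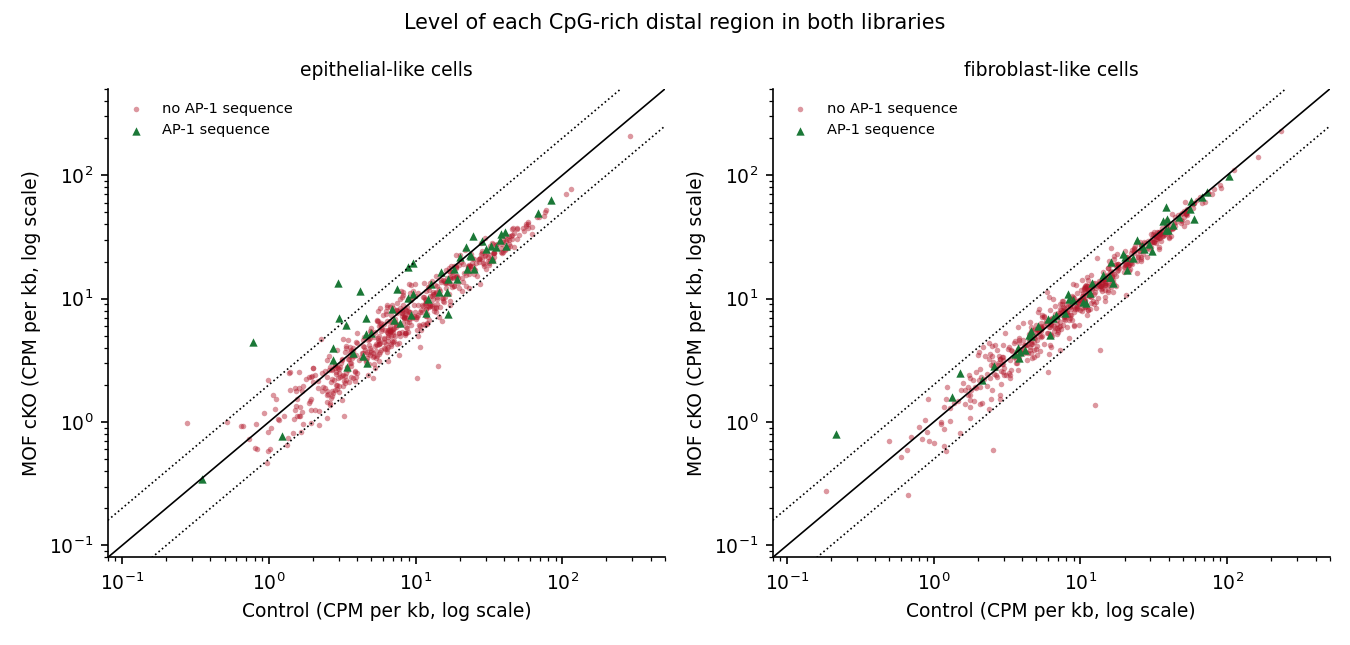
Each point is 1 of 627 CpG-rich distal regions, with its level in Control (x axis) and MOF cKO (y axis) in CPM per kb on log scales; the solid line marks equal levels, the dotted lines a 2-fold difference, and green triangles the regions with an AP-1 sequence. In epithelial-like cells most points lie below the line and 9 lie past 2-fold above it, 6 of them triangles; in fibroblast-like cells points lie around the line.

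Other motifs were counted in regions 800 to 1000 bp wide, so that width did not set the share: 508 members, 115816 other distal regions and 7630 CpG-rich promoter regions. AP-1 was in 8.27% of members, against 26.7% of other distal regions and 7.43% of promoters. GGGGCGGGG, the core bound by SP and KLF factors, was in 29.1%, 3.35% and 40.1%. The sequence for NRF1, an activator of housekeeping and mitochondrial genes, was in 8.07%, 0.352% and 16.8%. For AP-1 and SP/KLF the members' share was closer to that of promoters, and for NRF1 it lay between both. Members and these promoters met the same composition rule, which by itself favours GC-rich sequences. Its part in the contrast with other distal regions was not tested. CTCF sequences, bound by an insulator protein, were in 4.72%, 4.14% and 3.16%, and YY1 sequences in 0.197%, 0.0311% and 2.80%. Over all 627 members of any width, those with SP/KLF, NRF1 and CTCF sequences had median changes of -0.38, -0.34 and -0.33 in epithelial-like cells. Members without each of these had -0.315, -0.33 and -0.33. The 27 with an E2F sequence (TTTCGCGC or TTTGGCGC), bound by cell cycle factors, had -0.55, and those without it -0.33. Medians were -0.03 in 7 members with an ETS factor sequence and -0.14 in 5 with an X-box, the sequence of RFX factors. CRE, YY1 and p63 sequences were in 14, 3 and 4 members, with medians of -0.35, -0.32 and -0.34. Motif matches were counted on both strands and are a description of letters, not of binding.

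Of the 5 members with the highest levels in epithelial-like cells, 4 are described. The first of these, at chr15:85634229-85635129, covers a RefSeq start of D130051D11Rik and lies 51756 bp from Wnt7b, a Wnt ligand gene of the epidermis, with 114 CPM per kb in Control and 76.7 in MOF cKO (change -0.57, interval -0.62 to -0.52). Its fibroblast-like change was -0.02. The second, at chr6:47650668-47651576, covers a RefSeq start of Gm40371 and had 106 CPM per kb in Control and 69.9 in MOF cKO (change -0.60, interval -0.65 to -0.55).

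The third, at chr8:69716377-69717311 over a RefSeq start of Zfp869, had 83.7 CPM per kb in Control and 62.8 in MOF cKO (change -0.41, interval -0.47 to -0.36). The fourth, at chr15:73067157-73068078, 5953 bp from Trappc9, a trafficking gene that is imprinted in brain, had 78.0 CPM per kb in Control and 52.0 in MOF cKO (change -0.58, interval -0.64 to -0.52). All 4 were lower in epithelial-like cells by a similar amount, from -0.60 to -0.41, and nearer to equal in fibroblast-like cells, from -0.20 to -0.02. At 3 of the 4, RefSeq has a transcript start that the GENCODE annotation used here lacks.

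The 3 longest members went different ways. The longest, 1822 bp at chr7:143977634-143979455 over a RefSeq start of Shank2, a synaptic scaffold gene, was higher in MOF cKO, with 5.59 CPM per kb in Control and 7.94 in MOF cKO (change 0.50, interval 0.37 to 0.64). The next, 1446 bp at chr15:85670069-85671514 in an intron of Lncppara, held 182 CpG, the most of any member, at 73.7% GC and was lower, with 12.3 CPM per kb in Control and 6.66 in MOF cKO (change -0.89, interval -1.01 to -0.76). The Alk exon, 1339 bp, was the third. In fibroblast-like cells these regions had changes of -0.12, -0.18 and 0.22.

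Genes for developmental transcription factors were often the nearest protein-coding gene. They were nearest to 90 members, 14.4%, against 3.24% of all distal regions, and 71 different genes of the list were among them. Of the 90, 67 (74.4%, against 77.7% of all members) were lower in MOF cKO epithelial-like cells. The interval lay below 0 for 46, against 62.4% of all members, and above 0 for 8, against 10.7%. The median change was -0.25 against -0.33 in the 511 members beside no listed gene. In fibroblast-like cells the median of the 90 was -0.08. The pattern of the list leaves out Fox genes, whose members are therefore among the 511. Counted after values were seen, 14 members were nearest to a Fox gene. Of these, 11 were lower in epithelial-like cells, where 77.7% of all members were, with a median of -0.46 and a range of -1.06 to 0.37. A difference between them and the listed genes was not tested. With sites per cell 49 of the 90 were lower in epithelial-like cells, against 64.0% of all members, and the medians were -0.04 and -0.13. In fibroblast-like cells 89 of the 90 were then lower, against 93.1% of all members, with medians of -0.46 and -0.43.

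Within this group the changes ranged from -1.19 at Sox9 to 0.47 at Lhx1. A region 31007 bp from Eya2, a transcriptional coactivator, had 27.3 CPM per kb in Control and 13.1 in MOF cKO (change -1.06, interval -1.17 to -0.96), and one 3874 bp from Prdm12 had 10.8 CPM per kb in Control and 5.55 in MOF cKO (change -0.97, interval -1.15 to -0.79). The region beside Sox4, 4108 bp away, was the second highest of the group at 45.3 CPM per kb in Control and 30.7 in MOF cKO (change -0.56, interval -0.64 to -0.48). Members of one gene could differ: the 4 nearest to Nr2f2 had changes from -0.86 to 0.09, and the 3 nearest to Pax2 from -0.42 to 0.40. Beside Dlx2 the intergenic member had -0.12 (-0.25 to 0.01) and the one in an exon with untranslated sequence 0.38 (0.29 to 0.48). Of the 90 regions, 8 had an interval above 0, the Dlx2 exon among them, where 10.7% of all members and 29.7% of all shared regions had one. Others of the 8, picked after their values were seen, lay near Dmrt3 (change 0.47, interval 0.32 to 0.63), Shox2 (change 0.37, interval 0.19 to 0.55), Cdx2 (change 0.35, interval 0.19 to 0.52), Irx5 (change 0.30, interval 0.10 to 0.50) and Hand2 (change 0.26, interval 0.07 to 0.46).

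Regions beside signalling genes were mostly lower, as members in general were. Of 21 members whose nearest gene codes for a secreted or membrane ligand or an antagonist, 18 (85.7%, against 77.7% of all members) were lower in epithelial-like cells, 17 with an interval below 0 where 62.4% of all members had one, and the median was -0.53 against -0.33. In fibroblast-like cells the median was -0.02. Wnt ligands, which drive hair follicle and epidermal growth, had 9 of the 21. The region 5700 bp from Wnt2b had 14.7 CPM per kb in Control and 8.57 in MOF cKO (change -0.78, interval -0.93 to -0.63), and the 2 near Wnt7b changed by -0.77 and -0.57.

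Further Wnt members gave -0.58 at Wnt3a, -0.58 at Wnt3, -0.50 at Wnt1, -0.55 and -0.54 at a pair near Wnt11, and 0.07 (-0.04 to 0.19) at Wnt10a, the only Wnt member with an interval that included 0. Members beside Notch ligand genes had changes of -0.53 at Dll1, -0.61 and -0.42 at Dll4 and -0.29 at Dll3. Besides Wnt10a, the signalling members that were not lower were Gdf6, a BMP family ligand gene, at 0.28 (0.11 to 0.45), and Nog, a BMP antagonist gene, at 0.03 (-0.26 to 0.35). With sites per cell 17 of the 21 signalling members were lower, against 64.0% of all members, Fgf23 being the one that turned. At Nog the fibroblast-like level was 8.31 CPM per kb in Control and 4.79 in MOF cKO, and its log2 change was -0.79 (-1.18 to -0.43).

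All 6 members beside genes of the epidermal and hair follicle list were lower in epithelial-like cells, as were 77.7% of all members, with a median of -0.63 against 0.04 in fibroblast-like cells. They were the Sox9 exon, regions 118561 and 16306 bp from Klf4, a factor of epidermal barrier formation, at -0.71 and -0.42, one 177041 bp from Tfap2c at -0.85, a coding exon region nearest to Runx1 at -0.55 and one near Msx2 at -0.04 (-0.20 to 0.13). Only the interval at Msx2 included 0, and with sites per cell or median of ratios that region alone was higher, leaving 5 of 6 lower. The Klf4 levels were 13.8 CPM per kb in Control and 8.44 in MOF cKO at the farther region and 21.5 CPM per kb in Control and 16.1 in MOF cKO at the nearer one.

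Members beside imprinted genes numbered 3 and were all lower, a count too small to set against the 77.7% of all members, with a median of -0.83. Besides the 2 named above, a second region 21440 bp from Cdkn1c had 2.19 CPM per kb in Control and 1.24 in MOF cKO (change -0.83, interval -1.18 to -0.46). Its fibroblast-like interval included 0, with a change of 0.27. Hox genes, of the body axis, were nearest to 2 members, -0.54 near Hoxc4 and -0.22 near Hoxb13.

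**Figure D5:**
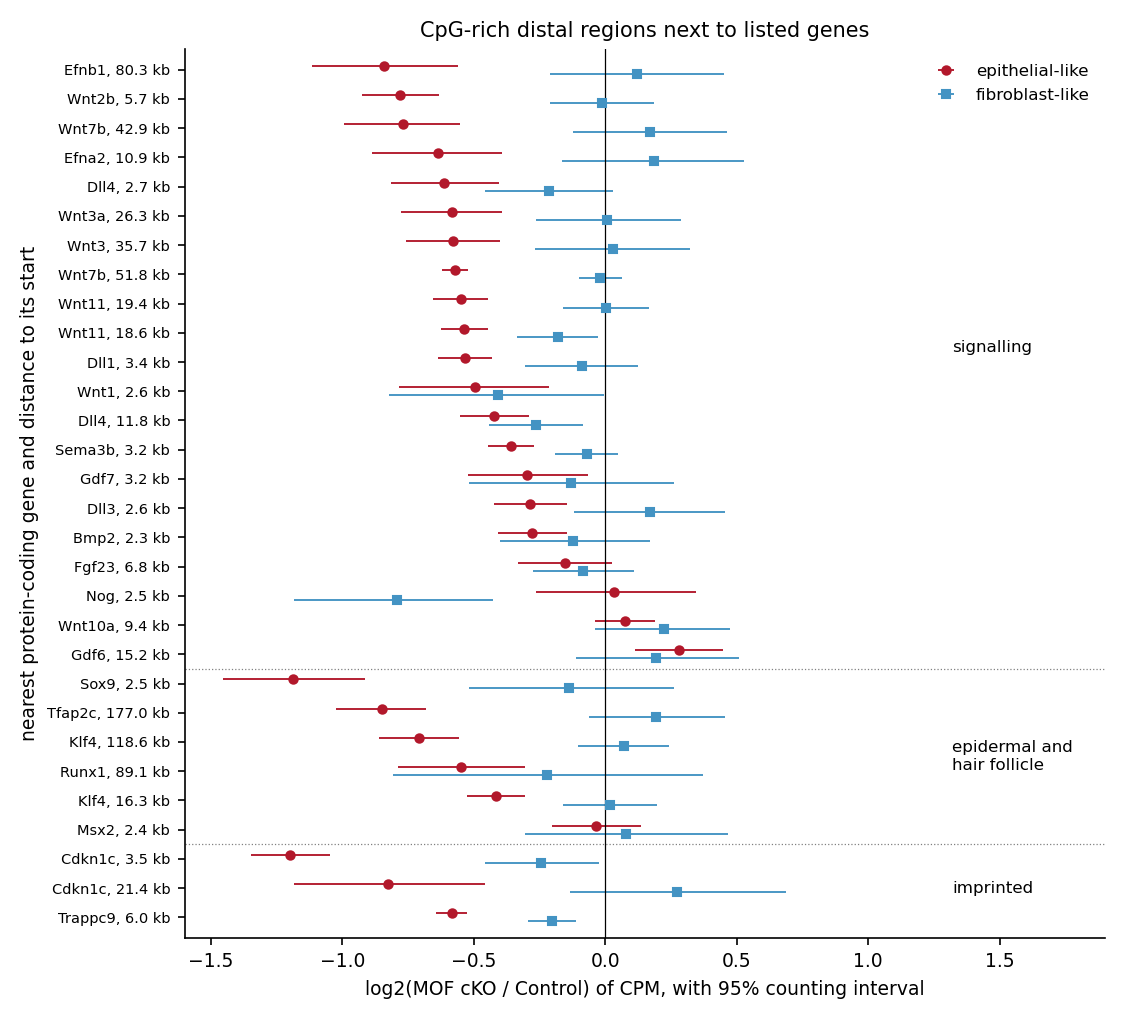
The x axis gives the change, log2(MOF cKO / Control), with its 95% counting interval for members beside signalling, epidermal and hair follicle, and imprinted genes, named on the y axis with the distance to the gene start; red is epithelial-like and blue fibroblast-like. Red points lie left of 0 except at Nog, Wnt10a and Gdf6, and most blue intervals cross 0.

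Members were not independent of each other. They had 536 different nearest protein-coding genes, 73 genes were nearest to 2 or more, and 87 members lay within 10 kb of another. The 48 pairs of neighbours at most 10 kb apart differed in their change by a median of 0.30, and 578 other pairs next to each other in genome order by 0.35. The most members, 11, lay around Bcor on the X chromosome, a corepressor gene of the Polycomb group, and 6 of them were lower, with changes from -0.53 to 0.28. When each library's own peaks gave the total, 9 of the 11 were lower. Near Cbx8, which codes for another Polycomb protein, the 4 members, too few to set against the 77.7% of all members, were all lower (2 of 4 with sites per cell or median of ratios), from -1.14 at 7.76 CPM per kb in Control and 3.52 in MOF cKO to -0.09. The 3 members nearest to Prdm13 were all higher, from 0.14 to 0.18, each with an interval that included 0.

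The change of a member was only weakly related to that of the promoter of its nearest gene. For 535 members whose nearest protein-coding gene had a promoter region, the median change was -0.34 at the member and -0.36 at the promoter. Both were lower in 348 cases, the member alone in 75, the promoter alone in 78, and neither in 34. Of all CpG-rich promoter regions 92.1% were lower, and of other promoter regions 70.0%. Pearson's r between the changes was 0.138 in the epithelial-like class and 0.053 in the fibroblast-like one, over regions that share the same 2 libraries.

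Members differed little between epithelial-like and fibroblast-like cells in Control. A 2-fold difference either way was seen in 90 members, 14.4%, of which 27 were higher in the epithelial-like class and 63 in the other, against 55% of other distal regions and 7.95% of CpG-rich promoters. The most epithelial of the listed genes was the Eya2 region, with 27.3 CPM per kb in epithelial-like and 3.62 in fibroblast-like Control cells, and the reverse held near Foxd1, a transcription factor gene of mesenchyme picked after its values were seen, with 3.21 and 16.6. In MOF cKO 23.8% of members differed 2-fold, 25 of them higher in the epithelial-like class and 124 in the other. The corresponding shares were 54.8% of all shared regions, 59.1% of other distal and 15.1% of CpG-rich promoter regions.

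In fibroblast-like cells the largest decrease among autosomal members with at least 200 sites was in a coding exon of Shank3, a synaptic scaffold gene, at chr15:89557902-89558783. It had 6.03 CPM per kb in Control and 2.54 in MOF cKO (change -1.25, interval -1.71 to -0.80), with -0.14 in epithelial-like cells. An intergenic region 7632 bp from Pigyl, at chr9:22164578-22165472, was lower in both classes, with changes of -0.95 here and -1.02 in epithelial-like cells. An exon of Ncan, which codes for the proteoglycan neurocan, at chr8:70111209-70112210 had 7.21 CPM per kb in Control and 3.87 in MOF cKO (change -0.90, interval -1.26 to -0.54) and went the opposite way in epithelial-like cells.

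Higher in MOF cKO fibroblast-like cells were exons of Tnfrsf13b, a receptor gene of B cells, at chr11:61147220-61147711 (change 0.92, interval 0.49 to 1.39), of Zc3h12d at chr10:7866994-7867941 (change 0.90, interval 0.38 to 1.45) and of B3gnt3 at chr8:71692296-71693130 (change 0.88, interval 0.34 to 1.43). The last 2 were also higher in epithelial-like cells, at 0.67 and 0.87.

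The 2 members on the Y chromosome had the most negative changes of all members in epithelial-like cells. They had 10.3 CPM per kb in Control and 2.29 in MOF cKO (change -2.16, interval -2.38 to -1.95) and 14.2 CPM per kb in Control and 2.85 in MOF cKO (change -2.32, interval -2.52 to -2.13), and they were lower in fibroblast-like cells too, with changes of -3.19 and -1.83. The labels give no sex for the embryos, so the mix of sexes in each library and the genotype cannot be told apart there. The 601 autosomal members had a median of -0.33 and the 24 on the X one of -0.28. A near-identical copy elsewhere on the chromosomes, at least 90% identical over at least 50% of the region, was found for 28 members, which included 1 of those on the Y and none of the 23 regions named by rule. Without these 28 the epithelial-like median was -0.33, with 15 members lower and 8 higher by 2-fold or more.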

How the data were processed

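Nuclei of 1 Control and 1 MOF cKO library were profiled by single-cell ATAC-seq. The deposited peak-by-barcode counts are whole-number counts of cut sites, made by the authors separately for each library on its own peaks. Per the submitters' processing notes the tool was cellranger-atac 2.0.0 and the build mm10. Fragment files were not analysed here, and the values of most entries were even (88.8% in Control, 91.6% in MOF cKO), so that intervals took 2 sites as 1 fragment.

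Peaks of both libraries were merged, and regions holding a peak of each were kept. Starts came from GENCODE release M21, composition from GRCm38.p6. Barcodes with under 1000 sites were left out (60 Control, 0 MOF cKO). Cells were clustered without the member regions (TF-IDF on 50000 regions, 30 singular vectors of which 1 was left out for depth, 20 neighbours, Leiden resolution 1) and classes named from at least 3 markers 2-fold above other classes. No doublets were removed, and leaving out the 5% of cells with the highest doublet score was an alternative. Sites were summed per class and library. Regions with at least 20 sites were used. Shares have exact binomial, and changes exact conditional, 95% intervals, which cover counting error only. Copies were sought with minimap2 2.31.

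Regions were named by rule: autosomal members with at least 500 epithelial-like sites, the 5 lowest and 5 highest changes; the 5 highest levels; with at least 200 fibroblast-like sites, the 3 lowest and 3 highest changes; the 3 longest; and those within 20 kb of an imprinted gene. Of these, 1 region is not reported here. Other regions were named after their values were seen. The members, gene lists and rules were chosen with earlier results of these data known. Symbols with a hyphen were allowed in the transcription factor list, whose pattern leaves out Fox genes and some other families. The summing and interval code was tested on simulated data. Python 3.11.15, numpy 2.4.6, scipy 1.17.1, pandas 2.3.3, scikit-learn 1.9.0 and leidenalg 0.10.2 were used.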

Additional observations from a re-analysis of the deposited data

Results flagged for a closer look

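Some members went opposite ways in epithelial-like and fibroblast-like cells. Counting intervals lay below 0 in epithelial-like and above 0 in fibroblast-like cells for 23 members (3.67%), where 3.12% of all shared regions had this, and the reverse held for 6 (0.957%), where 1.66% did. Of the regions named by rule, the exon of Tnfrsf13b had a change of -0.32 in the epithelial-like class and 0.92 in the fibroblast-like one, and the exon of Ncan had 0.45 and -0.90. The difference between classes was not tested, since each class has 1 library per genotype.

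Regions that met the composition and distance rule were also called as peaks in 1 library alone, which the comparisons did not use. There were 17 called only in Control, 0.0609% of 27930 such distal regions, and 50 called only in MOF cKO, 0.0474% of 105411. The MOF cKO library was deeper and had more peaks, 340134 against 249679, and the part of this depth in the counts was not tested.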

How the results depend on the processing

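No paired analysis was possible because each genotype has 1 library, and no replicate could be left out. Of 169 alternative values of the main results, 122 stayed within the limit used, 46 moved more and 1 reversed, and the cause was not tested. The limit was a ratio to the main value for counts past 2-fold and a spread for the rest. Some of the 122 could not move. These were differences between medians under another scaling, and fibroblast-like values when only epithelial-like clusters were left out. When each library's own peaks gave the total, the epithelial-like median was -0.48, with 35 members lower 2-fold and a share difference of -0.225 percentage points; the fibroblast-like median was -0.10 and the share difference -0.0664. Median-of-ratios factors gave an epithelial-like median of -0.18 and 8 lower. Sites per cell gave -0.13, 6 lower and 14 higher in epithelial-like, and -0.43 and 19 lower in fibroblast-like cells. Of all shared regions in epithelial-like cells, 16.1%, 8.85% and 7.9% were lower 2-fold under these scalings in turn. With sites per cell 20.1% of them were higher, and in fibroblast-like cells 16.05% were lower. Thinning cells to 5000 sites left 602 epithelial-like and 552 fibroblast-like members with enough sites, so the regions compared were not the same. Of the 602, 40 were lower 2-fold, where 9.98% of all shared regions with enough sites were, and the share difference was -0.169. The members' median less that of other distal regions was -0.52 and less that of CpG-rich promoters 0.0562. Fibroblast-like values were a median of -0.0276, 8 higher, where 11.5% of all shared regions with enough sites were, -0.0313 and -0.10. Without the 5% highest doublet scores the epithelial-like median less that of other distal regions was -0.28. With regions of 100 or more sites, 0 fibroblast-like members were higher 2-fold, where 8.34% of all such regions were. The difference from other distal regions was -0.0937.

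Narrower member rules changed mainly counts and shares, as fewer regions enter. They left the background as it was: 12.2% of all shared regions were lower and 16.8% higher 2-fold in epithelial-like cells. In fibroblast-like cells 7.89% and 10.0% were. A ratio of 0.65 with a width of 500 bp left 10 epithelial-like and 3 fibroblast-like members lower 2-fold, with share differences of -0.135 and -0.0306. A distance over 5 kb gave 11 lower and 5 higher, -0.122 and -0.0270. Without exons the epithelial-like median was -0.41, with 10 lower and 3 higher, -0.142, -0.32 against other distal regions and 0.0215 against promoters; fibroblast-like cells had 0 higher and -0.0287. Among alternatives chosen after seeing the data, fibroblast-like clusters with 50 or more cells of each library reversed the median to 0.0186, with 11 lower, 10 higher, a share difference of -0.0005 and -0.0133 against other distal regions. Of all shared regions in those clusters 12.1% were lower and 13.3% higher 2-fold. Members over 2 kb from RefSeq starts gave share differences of -0.122 and -0.0260, and members without copies -0.172 in epithelial-like cells. No cluster stayed unnamed, so counting unnamed clusters as epithelial-like gave no value. Of the named regions' values, 34 moved, in 14 regions, and none changed sign. These were fibroblast-like values for the regions named by fibroblast-like change and epithelial-like values for the rest. Values in the other class were not among them, and small ones can change sign with the scaling.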
